A study of Mus musculus with 7 samples.

Results

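Collagens are the proteins of the extracellular matrix built from 3 chains wound into a triple helix, and each chain has its own gene. The genes described here are the 44 protein-coding mouse genes named Col, a number, the letter a and a number, out of 53465 genes in the table of read counts. The rule for membership reads the symbol and the gene type. The kidneys came from 7 mice of the MRL/lpr strain, in which a faulty Fas gene leads to lupus-like nephritis, so that both groups carried the disease background. 4 mice had received AZD1152 (barasertib), a prodrug of an Aurora kinase B inhibitor, and 3 had received vehicle. Each mouse gave 1 poly(A)-selected library of whole renal tissue. The sources used here do not give the dose, the schedule or the age and sex of the mice. No healthy strain was among the samples, so the values compare treated with untreated diseased kidneys only.

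Fibrillar collagens (types I, II, III, V, XI, XXIV and XXVII) form the rope-like fibrils of the interstitium, where fibroblasts and related stromal cells make most of them, and types I and III are the bulk of scar tissue in a fibrotic kidney. Type IV collagen forms the sheet-like network of basement membranes. Its Col4a1 and Col4a2 chains occur in basement membranes throughout the body, while the Col4a3, Col4a4 and Col4a5 chains make the network of the mature glomerular filter, where podocytes secrete them. The other classes decorate fibrils (FACIT collagens), form beaded filaments (type VI), join basement membranes to the tissue below (types VII, XV and XVIII) or span the cell membrane.

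Library totals ran from 14692113 to 17036862 counts. Expression is given as CPM, counts scaled to a common library total after TMM, a factor that corrects for differences in composition. The tissue label was borne out by podocyte markers, summed over 8 genes to 564 to 832 CPM, and by proximal tubule markers. The latter summed over 10 genes to 10815 to 13842 CPM with vehicle and 16670 to 20443 CPM with AZD1152. Of these 10 markers 5 rose and 0 fell in edgeR, beside 3.02% and 4.81% of all genes, and their median log2 fold change was 0.61. Their part in the lower collagen levels was not tested. Genes of the mitochondrial genome took 8.03% to 9.0% of counts with vehicle and 9.41% to 11.6% with AZD1152. All 6 fat markers together stayed at or below 0.425 CPM in each library. In these bulk libraries fewer cells of a type and less RNA per cell cannot be told apart.

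Collagen genes as a whole took 0.207% to 0.274% of a vehicle library and 0.15% to 0.185% of an AZD1152 library, and the groups did not overlap. Of the 44 genes, 32 had enough counts to be tested in edgeR's quasi-likelihood test. In the treated kidneys 6 of these fell (Col1a1, Col1a2, Col4a3, Col12a1, Col16a1 and Col17a1) and 1 rose (Col27a1) at a Benjamini-Hochberg adjusted p under 0.05 over all genes. Over all 15774 genes tested, 4.81% fell and 3.02% rose. The median log2 fold change of the tested collagens was -0.43, beside -0.00060 over all genes tested, and 25 of the 32 estimates were negative, beside 50.1% of all genes. At an unadjusted p under 0.05, 14 of the 32 were lower and 1 was higher, beside 13.1% and 11.7% of all genes. The AZD1152 libraries lay wholly below the vehicle libraries for 8 of the 32 collagens and wholly above for 1, beside 11.6% and 11.2% of all genes. 1 of the 32, Col17a1, passed the filter on low counts through its vehicle libraries only. Without vehicle replicate 3 edgeR made 0 calls in either direction, where 1.02% of all genes were called lower and 0.376% higher. At an unadjusted p under 0.05 there were then 8 lower and 2 higher collagens of 33 tested, beside 9.31% and 7.36% of all genes. There were 1 lower and 1 higher call without vehicle replicate 1 (1.69% and 0.785% of all genes), and 2 lower and 0 higher without AZD1152 replicate 4 (2.15% and 0.684%).

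**Figure D1:**
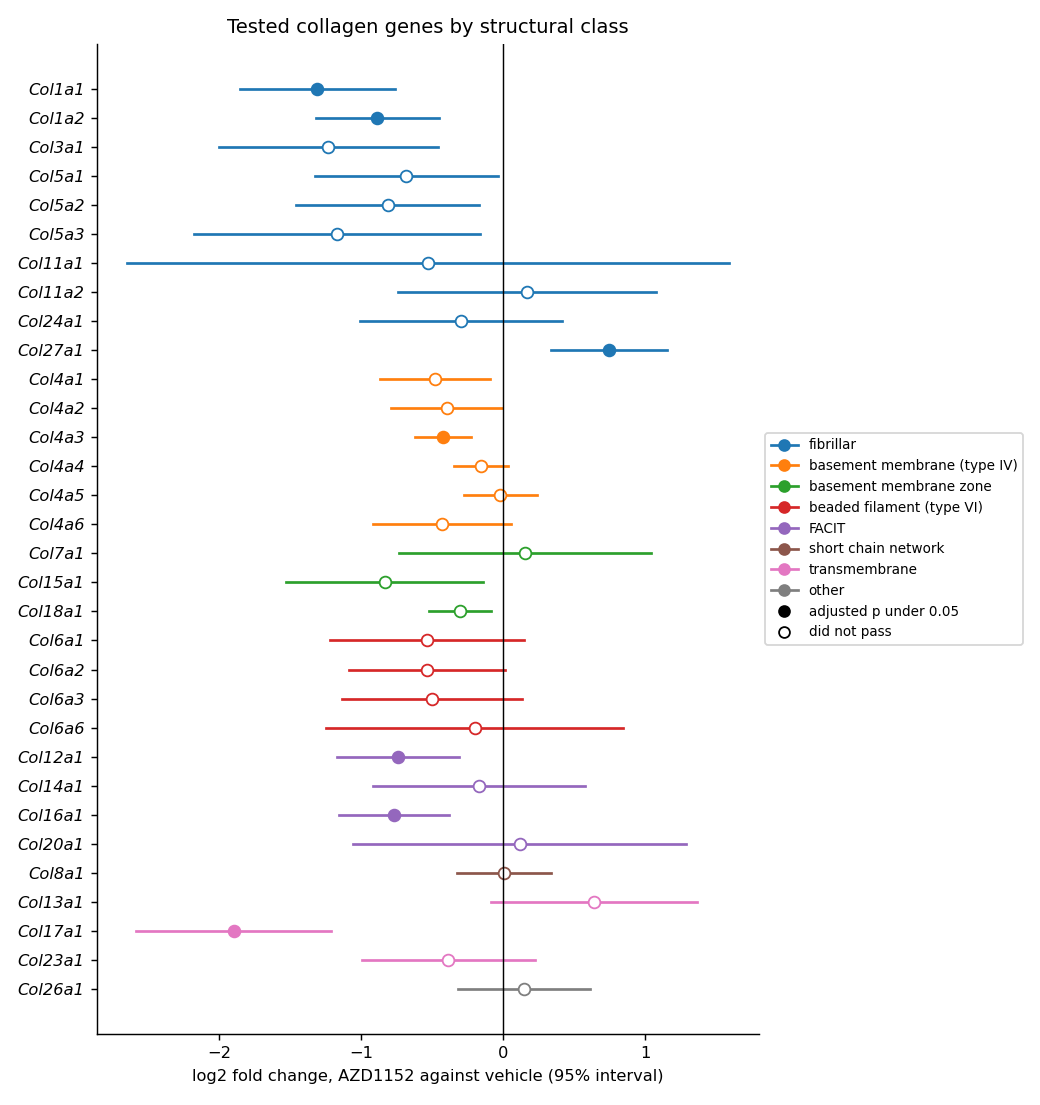
Log2 fold change (horizontal axis) of each of the 32 tested collagen genes, AZD1152 against vehicle, with its 95% interval, coloured by structural class. Filled points passed at an adjusted p under 0.05, and Col27a1 is the only filled point to the right of 0.

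Upstream sequence of a gene that fell and of the gene that rose is shown for orientation. RefSeq entries (GRCm38.p6) were matched for 35 of the 44 collagens and for 4 of the 7 called ones. For Col16a1 and Col27a1 alone among these 4 the 150 bases before the RefSeq start held no annotated exon of the gene itself. The 2 stretches end at the last base before the start. Both strands were searched for exact matches to 3 motifs that do not overlap each other, and matches are in capitals. One motif was CCAAT, the letters bound by NF-Y. The next was TATAAA, the TATA box. The last was GGGCGG, the core of an Sp1 site.
Col16a1, fell, chr4:130047690-130047839, plus strand: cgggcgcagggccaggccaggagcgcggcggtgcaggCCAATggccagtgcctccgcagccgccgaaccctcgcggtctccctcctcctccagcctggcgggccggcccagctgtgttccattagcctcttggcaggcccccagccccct
Col27a1, rose, chr4:63215262-63215411, plus strand: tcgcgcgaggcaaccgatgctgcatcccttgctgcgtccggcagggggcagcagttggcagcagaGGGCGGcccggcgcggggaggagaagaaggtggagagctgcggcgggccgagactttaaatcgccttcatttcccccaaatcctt
The Col16a1 window held CCAAT from 113 to 109 bases before the start, inside a stretch that also belongs to an exon of the gene Gm12963. The Col27a1 window held GGGCGG from 85 to 80 bases before a start that lies 1408 bases from the GENCODE start of the gene. The NF-Y motif occurred in 24.5%, the Sp1 motif in 28.6% and the TATA box in 7.57% of 32851 RefSeq windows of that length, and 8 of the 35 collagens had the NF-Y motif in such a window. A match describes these letters only and is not evidence of binding.

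The genes of type I collagen, the main fibril protein of scar tissue, fell in the treated kidneys. Col1a1 (ENSMUSG00000001506; GRCm38 chromosome 11, 94936224 to 94953042, plus strand), which encodes the chain present in 2 copies per type I molecule, stood at 76.6, 59.0 and 103 CPM in vehicle replicates 1 to 3. It stood at 24.1, 31.8, 46.2 and 26.3 CPM in AZD1152 replicates 1 to 4. Every treated kidney was below every vehicle kidney. The means were 79.4 ± 21.9 CPM (SD, n = 3) and 32.1 ± 9.97 CPM (SD, n = 4), or 0.404 of the vehicle level. On the log2 scale this was -1.31 ± 0.24 (SE; edgeR adjusted p = 0.0197). The partner chain Col1a2 (ENSMUSG00000029661; chromosome 6, 4504814 to 4541544, plus strand) had 116, 109 and 141 CPM with vehicle and 47.5, 72.9, 87.7 and 56.6 CPM with AZD1152. These groups did not overlap either. The log2 fold change of Col1a2 was -0.88 ± 0.19 (edgeR adjusted p = 0.0295). Leaving out vehicle replicate 1, vehicle replicate 3 or AZD1152 replicate 4 ended both calls, with edgeR adjusted p = 0.0533, 0.0768 and 0.0542 for Col1a1 and 0.0723, 0.117 and 0.0767 for Col1a2.

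Among the chains that share fibrils with type I, estimates were negative but none passed. Col3a1, the single chain of type III collagen, had 107, 63.1 and 122 CPM with vehicle and 23.7, 50.9, 63.4 and 28.3 CPM with AZD1152. Vehicle replicate 2 and AZD1152 replicate 3 were level with each other, and this was the overlap between the groups. For Col3a1 the log2 fold change was -1.23 ± 0.34 (edgeR adjusted p = 0.0612), and it passed without the low-count filter (0.00995), in DESeq2 (0.0433), with library totals alone (0.0402), without vehicle replicate 2 (0.0438) and without AZD1152 replicate 3 (0.0402). Type V collagen, which is built into type I fibrils and limits their width, is encoded by Col5a1, Col5a2 and Col5a3. Col5a1 had 18.6, 15.4 and 21.7 CPM with vehicle and 7.44, 14.9, 16.2 and 7.65 CPM with AZD1152. Col5a2 had 16.4, 9.54 and 15.6 CPM with vehicle and 4.72, 8.97, 10.98 and 6.87 CPM with AZD1152. In both genes AZD1152 replicates 1 and 4 were the lowest libraries and replicates 2 and 3 came close to or into the vehicle range. The log2 fold changes were -0.68 ± 0.29 for Col5a1, -0.81 ± 0.28 for Col5a2 and -1.17 ± 0.45 for Col5a3 (edgeR adjusted p = 0.179, 0.115 and 0.144). Col5a3 lay between 0.605 and 4.05 CPM. Col5a2 passed in DESeq2 (adjusted p = 0.0451).

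Col27a1, a fibrillar collagen known from cartilage and developing tissues, rose while type I fell. Its level (ENSMUSG00000045672; chromosome 4, 63214004 to 63334991, plus strand) was 81.3, 57.8 and 57.1 CPM with vehicle and 140.3, 86.6, 98.1 and 113 CPM with AZD1152. Every treated kidney exceeded the highest vehicle kidney. The means were 65.4 ± 13.8 CPM (SD, n = 3) and 109 ± 23.2 CPM (SD, n = 4), and the log2 fold change was 0.74 ± 0.18 (edgeR adjusted p = 0.0418), or 1.67-fold. The call was lost with library totals in place of TMM (0.60, edgeR adjusted p = 0.0711). Leaving out vehicle replicate 2 or 3, or AZD1152 replicate 1, 3 or 4, also ended it (edgeR adjusted p = 0.0946, 0.165, 0.0603, 0.06 and 0.0985). For each count of Col1a1 there were 1.06, 0.979 and 0.557 counts of Col27a1 in vehicle kidneys and 5.83, 2.72, 2.12 and 4.30 in treated kidneys. As the genes were paired after being called in opposite directions, the gap in this ratio is no separate evidence.

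The remaining fibrillar genes were scarce. Col2a1, the cartilage collagen, had 0 counts in all 7 libraries, which allows up to 0.167 to 0.213 CPM in a library by the limit of 3 counts. Col11a1, Col11a2 and Col24a1 reached at most 1.21, 3.33 and 2.10 CPM in any library, with log2 fold changes of -0.53 ± 0.93, 0.17 ± 0.40 and -0.30 ± 0.32 (edgeR adjusted p = 0.778, 0.84 and 0.615). The sign of each turned when 1 library was left out. Of the 11 fibrillar genes 10 were tested, and 2 fell and 1 rose, beside 4.81% and 3.02% of all genes. Their median log2 fold change was -0.75.

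**Figure D2:**
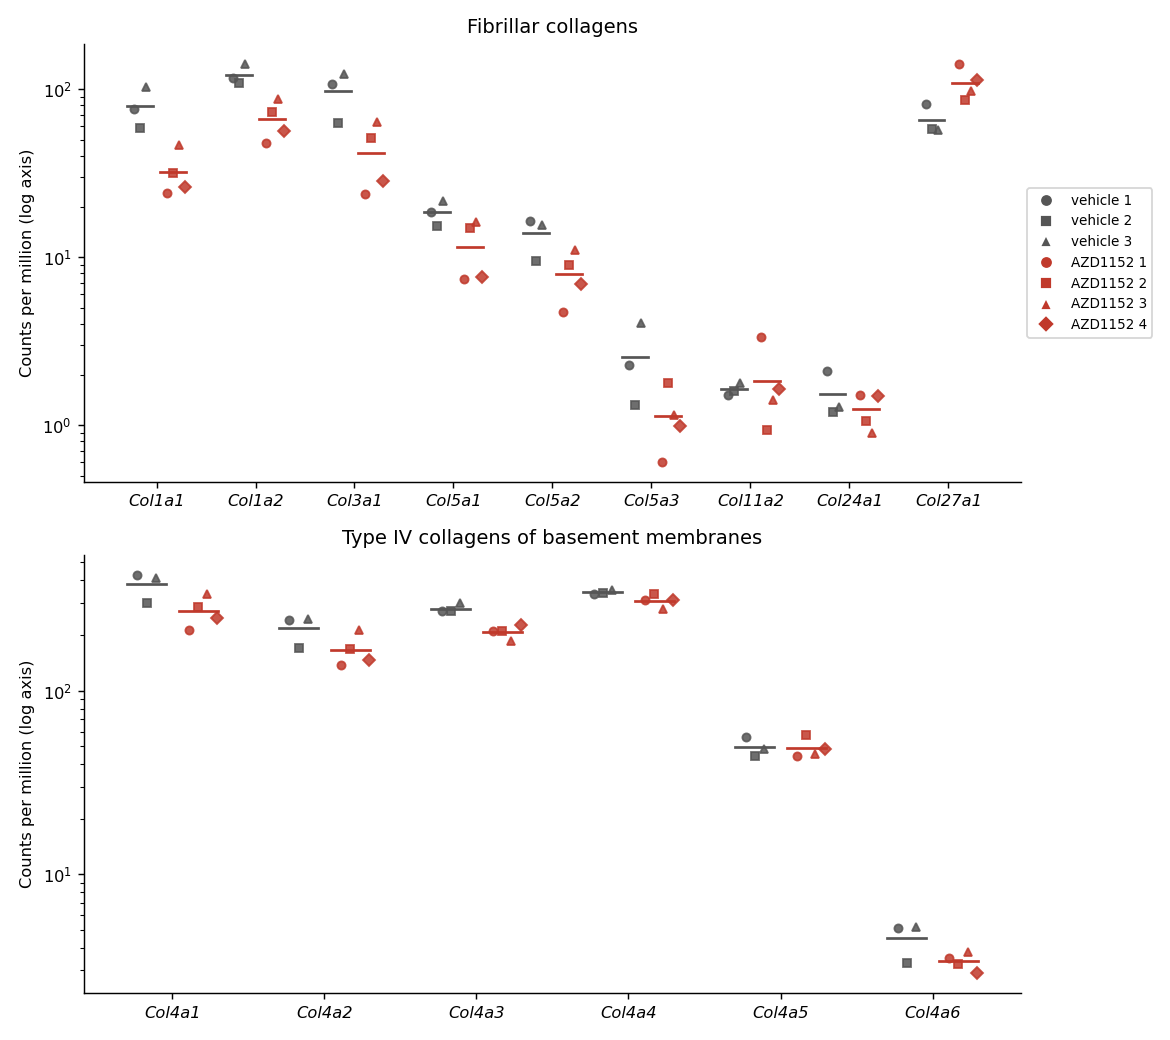
Expression in CPM of fibrillar (top) and type IV (bottom) collagen genes whose mean reached 1 CPM, on log axes. Each point is 1 library and each bar a group mean, and the treated points lie below all vehicle points for Col1a1, Col1a2, Col4a3 and Col4a4 and above them for Col27a1.

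In the basement membrane class, Col4a3 fell, and the other 5 type IV genes did not pass. Col4a3 (ENSMUSG00000079465; chromosome 1, 82586921 to 82722059, plus strand), a chain of the glomerular filter, had 271, 271 and 299.6 CPM with vehicle and 212, 211, 186 and 228 CPM with AZD1152. The groups were well apart, with means of 280.4 ± 16.6 CPM (SD, n = 3) and 209 ± 17.5 CPM (SD, n = 4). On the log2 scale the change was -0.42 ± 0.09 (edgeR adjusted p = 0.0263), or 0.746 of the vehicle level. Leaving out vehicle replicate 1 or vehicle replicate 3 ended the call (edgeR adjusted p = 0.0652 and 0.0954). An antisense gene, C430014B12Rik, shares 563 exonic bases with Col4a3, and it had 11 to 31 counts per library. Col4a4, whose protein pairs with that of Col4a3, had 338, 340.4 and 355 CPM with vehicle and 313, 334, 278 and 311 CPM with AZD1152. The groups did not overlap, but by a small margin, and the log2 fold change of -0.16 ± 0.08 did not pass (edgeR adjusted p = 0.285; 95% interval -0.34 to 0.03). It passed with library totals in place of TMM (-0.31, edgeR adjusted p = 0.0406), a scaling that moves the median of all genes to -0.151. Col4a5, the X-linked chain of this network, had 56.2, 44.1 and 48.0 CPM and 44.3, 57.2, 45.2 and 48.1 CPM, with a 95% interval of -0.28 to 0.24 around a log2 fold change of -0.02.

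The widespread type IV chains were at or near the top of all collagens by level, and the treated kidneys had the same order in both. Col4a1 had 426, 299.6 and 413 CPM with vehicle and 214, 287, 337 and 248 CPM with AZD1152. Col4a2 had 243, 171 and 247 CPM with vehicle and 138, 169.8, 214 and 147 CPM with AZD1152. In both genes vehicle replicate 2 was the lowest vehicle library and fell below AZD1152 replicate 3. Their log2 fold changes were -0.48 ± 0.17 and -0.40 ± 0.17 (edgeR adjusted p = 0.12 and 0.193). Col4a6, which joins Col4a5 in other basement membranes, lay between 2.90 and 5.16 CPM (log2 fold change -0.43 ± 0.21, edgeR adjusted p = 0.254). Of the 6 type IV genes 1 fell and 0 rose, beside 4.81% and 3.02% of all genes. At an unadjusted p under 0.05, 3 were lower, beside 13.1% of all genes. The median log2 fold change of the class was -0.41.

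The type IV genes lie in the genome as 3 pairs with their starts next to each other on opposite strands. The GENCODE starts are 21 bases apart for Col4a1 and Col4a2 on chromosome 8, 72 for Col4a3 and Col4a4 on chromosome 1, and 1309 for Col4a5 and Col4a6 on chromosome X. Ratios of counts within a library do not depend on scaling. The ratio of Col4a1 to Col4a2 was 1.76, 1.75 and 1.67 with vehicle and 1.54, 1.69, 1.58 and 1.69 with AZD1152, so the groups overlapped. The ratio of Col4a3 to Col4a4 was 0.802, 0.796 and 0.844 with vehicle and 0.677, 0.632, 0.667 and 0.733 with AZD1152, with every treated library below every vehicle library. The ratio of Col4a5 to Col4a4 overlapped between the groups, with means of 0.144 ± 0.0198 (SD, n = 3) and 0.157 ± 0.0126 (SD, n = 4). Beside these values, 0 of 8 podocyte markers passed in edgeR, and their median log2 fold change was 0.011. An unadjusted p under 0.05 was seen for 3 of the 8 markers, beside 24.8% of all genes in either direction. Their summed level was 652 to 683 CPM with vehicle and 564 to 832 CPM with AZD1152. Its part in the Col4a3 result was not tested.

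Col1a1 and Col1a2 lie on different chromosomes, and their ratio was also lower with treatment. This ratio and that of Col4a3 to Col4a4 follow from the log2 fold changes of their genes and are no separate evidence. The Col1a1 to Col1a2 ratio is given by library. It was 0.658, 0.544 and 0.725 with vehicle and 0.507, 0.437, 0.527 and 0.464 with AZD1152, with a narrow gap between vehicle replicate 2 and AZD1152 replicate 3. Col3a1 and Col5a2 are neighbours that end 24614 bases apart on chromosome 1, and their log2 fold changes were -1.23 and -0.81.

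**Figure D3:**
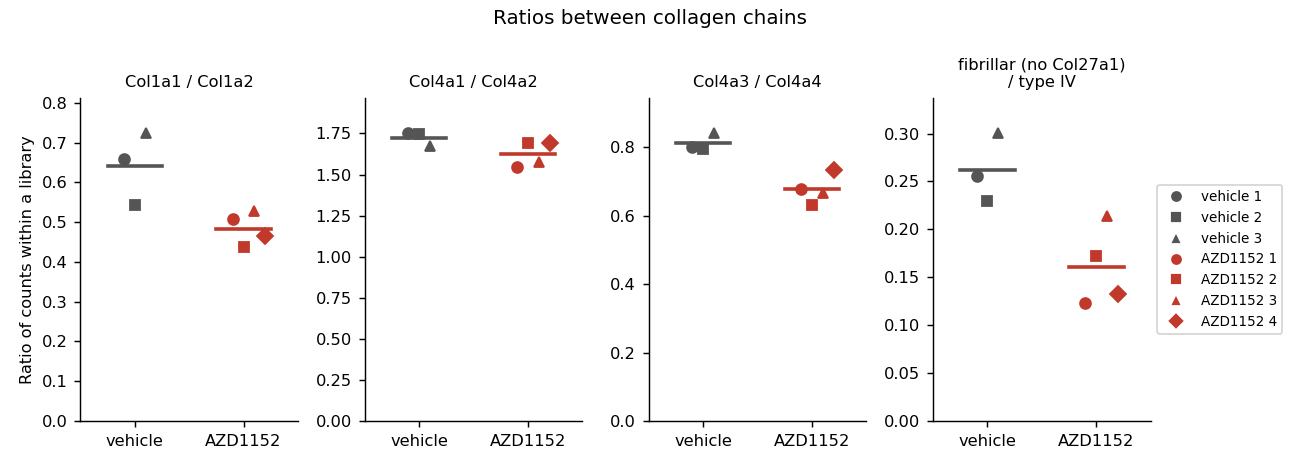
Ratio of counts within each library (vertical axes, from 0) for Col1a1 to Col1a2, Col4a1 to Col4a2, Col4a3 to Col4a4, and all fibrillar genes except Col27a1 to all type IV genes. Points are libraries and bars are group means, and the treated libraries lie below all vehicle libraries in each panel except Col4a1 to Col4a2. In the last panel Col27a1 was left out after its values were seen, and with Col27a1 included the groups overlapped.

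Fibrillar and type IV genes were compared within each library. All fibrillar counts together made 0.316, 0.281 and 0.343 of the type IV counts with vehicle and 0.275, 0.254, 0.307 and 0.247 with AZD1152, and the groups overlapped. Col27a1 made up much of the fibrillar counts in treated kidneys. Without it, a choice made after its values were seen, the ratio was 0.255, 0.230 and 0.301 with vehicle and 0.123, 0.172, 0.214 and 0.132 with AZD1152, and the groups did not overlap. The mean log2 CPM of the 10 tested fibrillar genes minus that of the 6 type IV genes averaged -3.20 ± 0.190 (SD, n = 3) with vehicle and -3.53 ± 0.0770 (SD, n = 4) with AZD1152. The difference between these means was -0.33 on the log2 scale. Vehicle replicate 2 (-3.40) and AZD1152 replicate 1 (-3.42) were nearly level in this score. Taken alone, the fibrillar mean was 0.65 lower and the type IV mean 0.31 lower on the log2 scale. In the fibrillar class vehicle replicate 2, at 3.17, was the vehicle library nearest to the treated range of 2.83 to 3.01. No test was made of these class means, because the members were chosen with earlier results known.

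**Figure D4:**
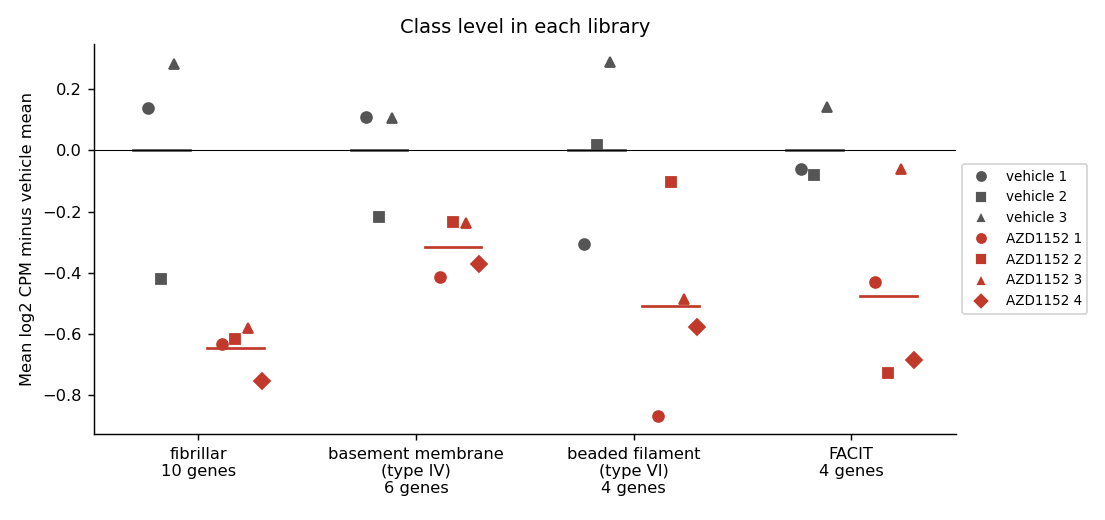
Mean log2 CPM of each class in each library, minus the mean of the vehicle libraries (vertical axis), for fibrillar, type IV, type VI and FACIT genes. Points are libraries and bars group means, and the treated means lie 0.65, 0.31, 0.51 and 0.48 below vehicle.

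Among FACIT collagens, which sit on the surface of fibrils, Col12a1 and Col16a1 fell. Col16a1 (ENSMUSG00000040690; chromosome 4, 130047840 to 130099283, plus strand) had 13.6, 12.5 and 19.7 CPM with vehicle and 8.65, 7.90, 9.52 and 9.78 CPM with AZD1152. Col12a1 (ENSMUSG00000032332; chromosome 9, 79598991 to 79718831, minus strand), which is found around type I fibrils under tension, had 22.0, 14.8 and 18.6 CPM with vehicle and 9.98, 10.03, 14.8 and 9.42 CPM with AZD1152. For Col16a1 the groups were apart, and for Col12a1 vehicle replicate 2 and AZD1152 replicate 3 were nearly level. The log2 fold changes were -0.77 ± 0.17 for Col16a1 and -0.74 ± 0.19 for Col12a1 (edgeR adjusted p = 0.0326 and 0.0483). Leaving out vehicle replicate 1 or 3, or AZD1152 replicate 1, 2 or 4, ended the Col12a1 call (edgeR adjusted p = 0.153, 0.153, 0.0876, 0.0981 and 0.114). For Col16a1 only leaving out vehicle replicate 2 kept the call (elsewhere edgeR adjusted p = 0.0563 to 0.103). Col14a1, the most abundant FACIT gene, had 76.4, 119 and 86.3 CPM with vehicle and 46.6, 121, 111 and 54.8 CPM with AZD1152. AZD1152 replicates 1 and 4 were below all vehicle kidneys while replicate 3 lay within the vehicle range and replicate 2 just above it, and the log2 fold change was -0.17 ± 0.33 (edgeR adjusted p = 0.799). Col20a1 had 0.12 ± 0.52 (edgeR adjusted p = 0.918). Of the 9 FACIT genes 4 were tested, and Col9a1, Col9a2, Col9a3, Col19a1 and Col22a1 were too low.

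Type VI collagen, the beaded filament that links cells to the interstitial matrix, had no call in edgeR among 4 tested genes of 6, with 0 at an unadjusted p under 0.05 and 0 in DESeq2 or limma voom. Col6a1 had 29.7, 33.2 and 49.3 CPM with vehicle and 15.8, 39.6, 28.6 and 19.2 CPM with AZD1152. Col6a3 had 36.8, 38.3 and 40.2 CPM with vehicle and 15.8, 38.8, 34.8 and 19.3 CPM with AZD1152. As with Col14a1, AZD1152 replicates 1 and 4 were the lowest libraries. The log2 fold changes of Col6a1, Col6a2 and Col6a3 were -0.54 ± 0.30, -0.54 ± 0.24 and -0.50 ± 0.28 (edgeR adjusted p = 0.312, 0.209 and 0.309). Col6a6, a scarcer chain, had -0.20 ± 0.46 (edgeR adjusted p = 0.834). AZD1152 replicate 1 was the lowest of the 7 libraries for 13 of the 32 tested collagens, and vehicle replicate 3 the highest for 16. AZD1152 replicate 1 was also the highest for 5, as many as vehicle replicate 1.

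Of the collagens at the edge of basement membranes, none passed in edgeR. An unadjusted p under 0.05 was seen for 2 of 3, beside 24.8% of all genes in either direction. DESeq2 called those 2, beside 7.5% of all genes called lower in DESeq2, while limma voom called 0. Col18a1, the heparan sulphate collagen that is the source of endostatin, had 235, 227 and 281 CPM with vehicle and 183, 208, 213 and 197 CPM with AZD1152. The groups did not overlap, and the log2 fold change was -0.30 ± 0.10 (edgeR adjusted p = 0.0876; DESeq2 adjusted p = 0.04). With library totals in place of TMM the adjusted p in edgeR was 0.0321. Col15a1, its relative around vessels and tubules, had 38.9, 25.9 and 42.1 CPM with vehicle and 11.4, 26.6, 27.5 and 14.5 CPM with AZD1152. Vehicle replicate 2 lay within the treated range, and the log2 fold change was -0.83 ± 0.31 (edgeR adjusted p = 0.133; DESeq2 adjusted p = 0.045). For Col7a1, the chain of anchoring fibrils, the value was 0.15 ± 0.39 (edgeR adjusted p = 0.851).

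Col17a1, a transmembrane collagen of epithelial hemidesmosomes, had the lowest log2 fold change of the tested collagens. It passed the filter on low counts through its vehicle libraries only, which limits what its rank and its call can show. It (ENSMUSG00000025064; chromosome 19, 47646344 to 47692094, minus strand) was scarce, with 26, 28 and 27 counts in vehicle replicates 1 to 3 and 6, 4, 8 and 7 counts in AZD1152 replicates 1 to 4. In CPM these were 1.51, 1.60 and 1.499 with vehicle and 0.363, 0.266, 0.511 and 0.496 with AZD1152, with a wide gap between the groups. The log2 fold change was -1.89 ± 0.30 (edgeR adjusted p = 0.0128), and the call was lost without vehicle replicate 3 (edgeR adjusted p = 0.0532). Urothelial markers, from the lining of the renal pelvis, summed over 7 genes to 5.14 to 11.9 CPM with vehicle and 1.86 to 3.87 CPM with AZD1152. Of these 7 genes 3 were tested and 0 passed in edgeR. An unadjusted p under 0.05 was seen for 1 of them, beside 24.8% of all genes in either direction. Their part in the Col17a1 result was not tested. The other transmembrane genes did not pass, with log2 fold changes of 0.64 ± 0.32 for Col13a1 and -0.39 ± 0.27 for Col23a1 (edgeR adjusted p = 0.259 and 0.423). Col8a1, a short chain collagen of vessel walls, had 46.7, 29.9 and 32.8 CPM with vehicle and 35.6, 39.8, 35.3 and 35.3 CPM with AZD1152, and its 95% interval ran from -0.33 to 0.33. Col26a1 had 0.15 ± 0.21 (edgeR adjusted p = 0.712). Of the 12 collagens that were not tested, 11 had counts in some library, too low for the filter, and 1 had none. The highest of them, Col6a4, had 3 to 27 counts per library.

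Per exonic length, Col18a1 and 4 of the type IV genes stood above every fibrillar gene in both groups. In CPM per kilobase of exon (FPKM), Col4a1 led with 50.8 ± 9.32 with vehicle, followed by Col18a1 at 35.3 ± 4.13, Col4a2 at 33.3 ± 6.39, Col4a4 at 32.5 ± 0.892 and Col4a3 at 28.1 ± 1.67 (SD, n = 3). Col18a1, Col4a2 and Col4a4 differed by less than their spread. Col1a1 at 12.1 ± 3.34, Col3a1 at 9.94 ± 3.14 and Col1a2 at 9.83 ± 1.38 FPKM were likewise within each other's spread, and Col27a1 stood at 5.02 ± 1.06 FPKM. With AZD1152, Col4a1 was at 36.4 ± 7.10 and Col4a4 at 29.1 ± 2.18 FPKM, whereas Col1a1 was at 4.89 ± 1.52 and Col27a1 at 8.41 ± 1.78 FPKM (SD, n = 4). By these means Col1a1 went from place 7 to place 11 and Col27a1 from place 13 to place 7 among the 32 tested collagens. Lengths are those of all annotated exons together, so these levels are approximate.

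Genes that modify, cut, link and bind collagen were read from 7 lists holding 78 genes, of which 74 were tested. In edgeR 4 of these fell and 1 rose, beside 4.81% and 3.02% of all genes. The list of chain hydroxylation, folding and export had 21 tested genes, 1 lower and 1 higher, and a median log2 fold change of -0.0017. P3h2, the prolyl hydroxylase that acts mainly on type IV collagen, rose, with 142 ± 10.6 CPM in the 3 vehicle kidneys and 224 ± 11.1 CPM in the 4 treated ones (mean ± SD; log2 fold change 0.66 ± 0.08, edgeR adjusted p = 0.00951). All treated kidneys were above all vehicle kidneys, and no left-out library ended the call. The antisense gene Gm4524 shares 1055 exonic bases with P3h2, 28.4% of its length, and had 341 to 429 counts with vehicle and 542 to 712 with AZD1152. Colgalt1, which adds galactose to collagen, fell from 46.3, 45.7 and 53.5 CPM to 34.8, 41.6, 35.4 and 36.3 CPM (-0.39 ± 0.09, edgeR adjusted p = 0.0386), and leaving out any library but AZD1152 replicate 2 ended its call (0.0501 to 0.148). It shares 495 exonic bases with Unc13a. P4ha1 and Plod1, which hydroxylate proline and lysine, had 0.45 ± 0.14 and 0.29 ± 0.08 (edgeR adjusted p = 0.0811 and 0.069), and both passed in DESeq2.

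Outside the cell, 0 of 7 tested genes for propeptide cleavage, 0 of 7 for cross-linking and 0 of 13 for fibril partners passed in edgeR, with 2, 2 and 4 at an unadjusted p under 0.05. Over all genes 24.8% had such a p in either direction, a share to set beside these counts and those of the lists below. DESeq2 called 0, 1 (Lox) and 2 (Dcn and Tnc), all lower, beside 7.5% of all genes called lower in DESeq2. With limma voom there were 0 calls in each list. The medians of the 3 lists were -0.31, -0.52 and -0.53. Bmp1, the protease that removes procollagen tails, had -0.43 ± 0.14, and Lox, the oxidase that starts cross-links, -1.01 ± 0.34 (edgeR adjusted p = 0.0914 and 0.106). Tnc (tenascin C) and Dcn (decorin), which bind fibrils, had -1.11 ± 0.29 and -0.75 ± 0.20 (edgeR adjusted p = 0.0539 and 0.0567). Among 11 basement membrane partners 1 fell, the calcium-binding matrix protein Smoc2, from 9.67, 5.88 and 17.2 CPM to 4.30, 2.46, 1.60 and 3.26 CPM (-1.91 ± 0.40, edgeR adjusted p = 0.0264). All treated libraries were lower. Leaving out vehicle replicate 1 or 3, or AZD1152 replicate 2, 3 or 4, ended the call (edgeR adjusted p = 0.0504 to 0.103). Agrn (agrin) and Nid2 (nidogen), also of basement membranes, had -0.45 ± 0.15 and -0.26 ± 0.10 (edgeR adjusted p = 0.0968 and 0.136), and Tinag, of tubular basement membranes, 0.52 ± 0.15 (0.072). DESeq2 also called Agrn lower and Tinag higher.

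Among enzymes that cut collagen, Mmp14, the membrane-bound collagenase, fell. It had 47.9, 43.1 and 51.6 CPM with vehicle and 20.4, 24.5, 30.5 and 22.0 CPM with AZD1152. The groups were well apart, the log2 fold change was -0.96 ± 0.14 (edgeR adjusted p = 0.0106), and no left-out library ended the call. The other 6 genes of that list did not pass in edgeR, though 5 of all 7 had an unadjusted p under 0.05, and the list's median was -0.78. Mmp2, a gelatinase, had -0.78 (edgeR adjusted p = 0.102) and passed in DESeq2 (0.037) and without AZD1152 replicate 3 (0.0498). Of 8 tested collagen receptors 1 fell, Lair1, an inhibitory receptor on leukocytes, from 10.1, 8.57 and 9.77 CPM to 3.51, 2.13, 5.94 and 4.75 CPM (-1.21 ± 0.29, edgeR adjusted p = 0.0391). Leaving out any 1 vehicle replicate, or AZD1152 replicate 1 or 4, ended its call (edgeR adjusted p = 0.0574 to 0.129). All 8 receptor estimates were negative, with a median of -0.30 and 3 at an unadjusted p under 0.05. Itga2, an integrin chain that binds collagen, had 3.38, 3.598 and 5.33 CPM with vehicle and 2.60, 2.32, 2.04 and 1.77 CPM with AZD1152, with no overlap. Its estimate was -0.90 ± 0.24 (edgeR adjusted p = 0.0515), and it passed in DESeq2 (0.0178), with library totals (0.0337), without the low-count filter (0.0496) and with a stricter one (0.0466). Ddr2, a receptor tyrosine kinase for fibrillar collagen, had -0.61 ± 0.25 (edgeR adjusted p = 0.164). Macrophage markers summed over 12 genes to 964 to 1314 CPM with vehicle and 443 to 685 CPM with AZD1152, and 9 of the 12 fell in edgeR, beside 4.81% of all genes. Their part in the Lair1 result was not tested.

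**Figure D5:**
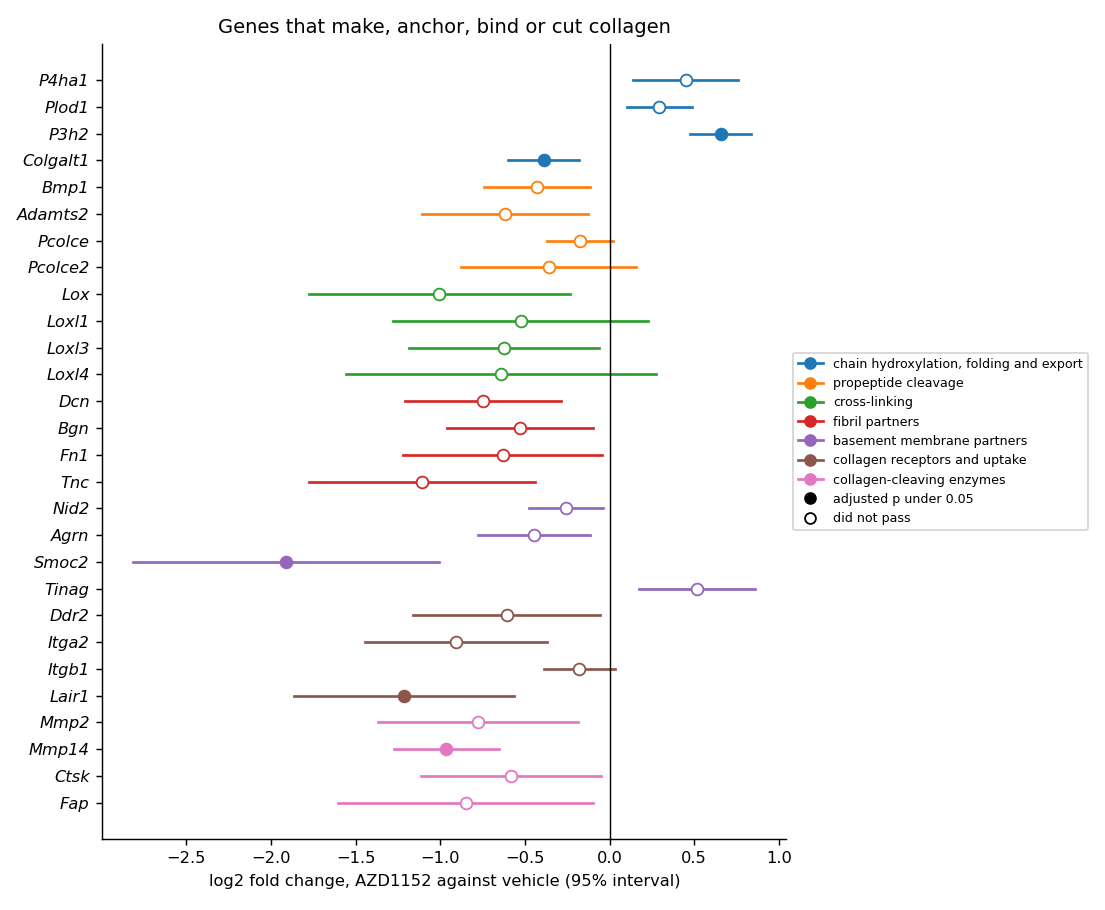
Log2 fold change (horizontal axis) with its 95% interval for the genes of smallest p in each of the 7 collagen pathway lists, AZD1152 against vehicle. Filled points passed at an adjusted p under 0.05, with P3h2 to the right of 0 and Colgalt1, Smoc2, Lair1 and Mmp14 to the left.

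Markers of the cells that make interstitial collagen are given beside the fibrillar results. Fibroblast and pericyte markers summed over 11 genes to 189, 222 and 267 CPM with vehicle and 150.3, 168, 184 and 131 CPM with AZD1152. These sums did not overlap, but vehicle replicate 1 (188.7 CPM) and AZD1152 replicate 3 (183.7 CPM) were close. Of the 9 markers tested, 1 fell in edgeR, beside 4.81% of all genes called lower. An unadjusted p under 0.05 was seen for 5, beside 24.8% of all genes in either direction. Mfap5, 1 of these 5, had 14, 15 and 16 counts with vehicle and 5, 8, 9 and 4 with AZD1152. It passed the filter on low counts through its vehicle libraries only, which limits what its p and the count of 5 can show. The median log2 fold change of the 9 markers was -0.65. DESeq2 called 4 of the 9 lower (Dpt, Fbln1, Rgs5 and Thy1) and limma voom 1, beside 7.5% and 5.07% of all genes. The gene called in edgeR was Thy1 (-1.40 ± 0.31, edgeR adjusted p = 0.0326), which mouse T cells also express, and T cell markers summed to 104 to 163 CPM with vehicle and 49.3 to 76.4 CPM with AZD1152. Thy1 had 16.1 CPM in vehicle replicate 1 and 9.90 CPM in AZD1152 replicate 3. Without Thy1 the fibroblast and pericyte sums overlapped between the groups. Pdgfra, the receptor that marks fibroblasts, had 28.1, 39.9 and 37.4 CPM with vehicle and 16.2, 31.7, 36.0 and 18.1 CPM with AZD1152, so that AZD1152 replicates 1 and 4 were again lowest (-0.46 ± 0.27, edgeR adjusted p = 0.339). AZD1152 replicates 1 and 4 were lowest for Pdgfrb, a pericyte receptor, as well (-0.28 ± 0.26, edgeR adjusted p = 0.56). The same replicates were lowest for Fbln1 and Mfap5, and for Pi16 the lowest library was vehicle replicate 2. The rest of the list differed. For Dpt, Thy1, Cspg4 and Rgs5 AZD1152 replicate 1 was the highest treated library, at 4.84, 10.3, 33.9 and 39.6 CPM. Of 5 tested smooth muscle genes 0 passed in edgeR and 0 had an unadjusted p under 0.05, and of 9 endothelial genes 0 passed, with 1 at an unadjusted p under 0.05. DESeq2 and limma voom called 0 genes of the smooth muscle, endothelial, podocyte and urothelial lists. The part of these cells in the fall of type I collagen was not tested.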

How the data were processed

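The authors deposited 1 table of raw read counts per Ensembl gene, whole numbers without normalization. Per the labels' protocols, mRNA was selected with oligo(dT) beads and made into TruSeq libraries. Per the submitters' processing notes, CASAVA and HISAT2 2.0.5 were used on GRCm38, and DESeq2 and DESeq are named. How reads were counted, with which annotation and whether by strand, is not given in the sources used here, and without strand antisense and overlapping genes share reads. Groups and replicate numbers came from the sample titles, and no pair of libraries agreed within sampling noise (chi-square over degrees of freedom at least 9.97 in 21 pairs). Symbols, biotypes, positions and exonic lengths came from GENCODE M21 (GRCm38), which named 53360 of 53465 genes.

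Genes were filtered with filterByExpr (about 10 counts, or 0.611 CPM, in 3 libraries), scaled by TMM and compared between the groups by the two-sided quasi-likelihood test of edgeR 4.0.16 in R 4.3.3, Benjamini-Hochberg adjusted over 15774 genes. The steps were run on simulated counts with known folds, and no result given here rests on that run. Standard errors are the log2 fold change over the square root of F. CPM use TMM-scaled totals, and single-library log2 CPM a prior count of 2. A count of 0 allows up to 3 counts, and this limit covers counting error only; amplified reads carried no molecular identifiers and can be copies. The biological coefficient of variation was 0.168. Alternatives were other factors and filters, DESeq2 1.42.0, voom of limma 3.58.1, a replicate block and leaving out each library. Named genes were all called collagens, all tested fibrillar and type IV genes, the 2 most abundant of each other class and up to 4 of smallest p per pathway list. Col6a2, a few values of low members and the marker genes were added after their values were seen. The collagen genes and all lists were chosen with earlier results of these data known.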

Additional observations from a re-analysis of the deposited data

Results flagged for a closer look

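For 2 of 28 collagen genes, 1 of the 4 AZD1152 libraries stood apart from the other 3 by more than Dixon's 95% critical value for 4 samples, and chance alone flags about 1 in 20 such groups. Col12a1 was at 14.8 CPM in AZD1152 replicate 3, with 10.03 CPM in the nearest treated library, and the gap was 0.888 of the range. Col8a1 was at 39.8 CPM in AZD1152 replicate 2, with 35.6 CPM in the nearest, and the gap was 0.924 of the range.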

How the results depend on the processing

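Over all genes the main test gave 476 higher and 759 lower calls, so that 38.5% of calls were higher. Library totals alone gave 232 and 1482 (13.5% higher) and moved the median of all genes to -0.151, DESeq2 gave 950 and 1183, and leaving out 1 library gave 60 to 475 and 163 to 619. Lower collagens numbered 6, against 10 in DESeq2 and 0 to 7 with 1 library left out, and higher ones 1, against 0 with library totals and 0 to 1 with 1 library left out. At an unadjusted p under 0.05, 1 collagen was higher with library totals. Lower pathway genes numbered 4, against 11 with library totals, 8 without the low-count filter, 10 in DESeq2 and 1 to 5 with 1 library left out. Higher ones numbered 1, against 3 without the filter, 4 in DESeq2 and 1 to 2 with 1 library left out. The type IV median was -0.57 with library totals, and the FACIT median -0.16 without the filter and -0.75 with a stricter one (1 CPM in 3 libraries and a mean of 2 CPM), which test other genes. The fibrillar minus type IV difference ran from -0.43 to -0.24 with 1 library left out.

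Deviations of same-numbered mice from their group means had correlations of -0.288, 0.209 and -0.119. Those of differently numbered mice ran from -0.232 to 0.299. With so few mice these values cannot show whether the numbers pair them. With the replicate block there were 63 higher and 146 lower genes, 1 higher and 1 lower collagen, and 2 lower pathway genes.

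Signs turned only in genes that were not called. With 1 library left out, Col11a1 ran from -0.96 to 0.040, Col11a2 from -0.31 to 0.38, Col24a1 from -0.44 to 0.0026, Col4a5 from -0.12 to 0.084 (0.022 and 0.0036 between), Col14a1 from -0.42 to 0.038 (0.029 between), Col8a1 from -0.12 to 0.22 (-0.068 and -0.051 between) and Col26a1 from -0.010 to 0.27. Col8a1 was at -0.010 with upper-quartile factors, -0.15 with library totals and -0.0097 with the stricter filter, and Col26a1 at -0.0094 with library totals. Depth limits the precision of the scarcest genes, such as Col11a1, with at most 1.21 CPM in a library. Col14a1, Col4a5 and Col8a1 were not scarce, with means of 87.9, 49.0 and 36.5 CPM over all libraries. The cause of these changes was not tested.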
